A study of Mus musculus with 36 samples.

Results

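Dendritic cells (DCs) that lack the type I interferon receptor were compared with wild-type (WT) DCs 14 h after mice had been injected with poly IC, a synthetic double-stranded RNA that mimics viral RNA. The comparison rests on 9 of the 36 bead arrays of the study: 6 samples labelled WT and 3 labelled IFNAR-/-, all of C57BL/6 background and all given 50 µg of poly IC into the peritoneum. Per the methods the mice were used at 7 to 8 weeks of age and were bone marrow chimeras made with WT (CD45.1) and knockout (CD45.2) marrow, so that both kinds of DC met the same inflammatory environment, and the cells were told apart by sorting on CD45.2. The receptor is absent from all cells of the knockout donor, not from DCs alone, and both genotypes carry the treatment. Spleen cells were sorted as CD11chi CD3- DX5- B220-, which leaves conventional DCs and takes out T cells, NK cells, B cells and plasmacytoid DCs. The labels do not say which WT and IFNAR-/- samples came from the same mice. The samples at 4 h were pools of 6 mice per a legend of the study, while no number of mice was found for 14 h, so the p-values take in only sample-to-sample spread, part of which may be technical. Unstimulated DCs (8 samples, labelled as untreated) and DCs taken at 4 h serve below as reference levels. The labels give no genotype for the unstimulated DCs, and since the study's controls included PBS-injected chimeras sorted into both genotypes, this group may hold knockout as well as WT DCs.

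Type I interferons (IFNs) are released when cells sense viral nucleic acid, and they act through a receptor of 2 chains, IFNAR1 and IFNAR2. The receptor activates the kinases JAK1 and TYK2, which pass the signal to a complex of transcription factors that includes STAT2 and IRF9, and this complex turns on the IFN-stimulated genes, among them most known antiviral effectors. DCs take up and present antigen to T cells, and type I IFN is known to promote their maturation, the passage from an antigen-capturing to a T cell-stimulating state.

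Levels are log2 bead signals after quantile normalization, with 6.49 as the level of background, and differences are given as IFNAR-/- minus WT. Standard errors (SE) and limma p-values use the spread within all groups of the study (33 samples), not that of these 9 samples alone. For a given gene they can thus be smaller or larger than its listed levels imply. The probe of Ifnar1, the gene of the deleted chain, was detected on 0 of 36 arrays and so did not check the labels. Ifnar2 lay at 7.03 to 7.49 in WT and at 7.51, 7.42 and 7.35 in IFNAR-/- DCs, and the groups overlapped (difference 0.10 ± 0.12 SE, limma adjusted p = 0.611). Between 11214 and 12326 of 25697 probes were detected per array. WT replicate 6 had the fewest, and it stood apart: the median absolute difference from another WT array was 0.181 to 0.289 log2 units with it and 0.12 to 0.221 without it. Counts without WT replicate 6 are therefore given beside those with all samples. WT replicate 4 was the WT sample closest to the IFNAR-/- samples (0.185 on average) and WT replicate 6 the farthest (0.386).

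Genes differed between the genotypes in both directions. Of 9606 genes tested, 473 (4.92%) were lower and 452 (4.71%) were higher in IFNAR-/- DCs at an adjusted p under 0.05 and a difference of at least 2-fold, 925 (9.63%) in all. The balance of the directions depended on the processing, with 322 lower and 878 higher genes where arrays were scaled to a common median. With limma on the 9 samples alone 437 were lower and 322 higher, and with the methods' t-test 411 and 258. Differences past 4-fold were more often falls: 102 genes were at least 4-fold lower and 61 at least 4-fold higher, and 26 and 16 passed 8-fold. The median size was -1.45 among the lower and 1.29 among the higher genes. Without WT replicate 6, 407 (4.24%) were lower and 343 (3.57%) higher, of which 404 and 339 were also called with all samples. The 3 IFNAR-/- samples lay wholly below or above the 6 WT samples for 436 of the lower and 415 of the higher genes, and for 27.3% of all genes tested.

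**Figure D1:**
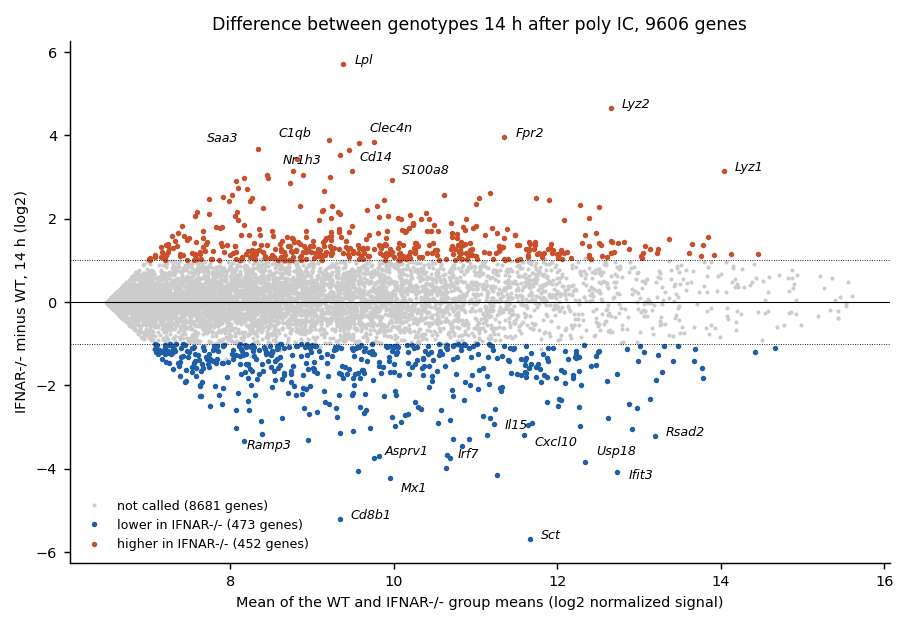
Difference between IFNAR-/- and WT DCs at 14 h (log2, y axis) for each of 9606 genes against the mean of the group levels (log2 normalized signal, x axis), with dotted lines at 2-fold. Sct and Cd8b1 lay lowest among the 473 lower genes, and Lpl and Lyz2 highest among the 452 higher genes.

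Most antiviral IFN-stimulated genes were lower without IFNAR. Of 28 tested, 24 were lower and 1 was higher (median difference -2.76, against 0 over all genes), with the same counts without WT replicate 6. Mx1, a GTPase that blocks influenza virus, had levels of 11.06 to 13.16 in WT DCs (median 11.97) and of 7.67, 7.83 and 8.03 in IFNAR-/- DCs. The groups were well separated and the IFNAR-/- samples lay close together (difference -4.21 ± 0.36 SE, 18.6-fold, adjusted p = 4.23e-10). Ifit3, of the IFIT family that recognises foreign RNA, ran from 13.84 to 15.52 in WT DCs (median 14.79) against 11.09, 11.12 and 9.89. Each IFNAR-/- sample was below each WT sample, and IFNAR-/- replicate 3 was the lowest (difference -4.07 ± 0.62, adjusted p = 7.43e-06).

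The 2-5A synthetases, which activate the RNA-degrading RNase L, were lower as a family, with differences of -4.14 for Oas1g, -3.97 for Oas2, -2.97 for Oasl1 and -2.25 for Oas3, the last detected on 2 of 3 IFNAR-/- arrays. Oas1a and Oas1b were undetected on the 3 IFNAR-/- arrays and at least 2.73-fold and 2.56-fold lower. Their sequences resemble that of Oas1g, and a part of 1 probe's signal that comes from another gene of the family cannot be told apart. The nucleotide kinase gene Cmpk2 (-3.75), its neighbour Rsad2, which encodes the antiviral enzyme viperin (-3.21), the exonuclease gene Isg20 (-3.15) and Eif2ak2, the RNA-activated kinase PKR (-2.82), followed. Of the IFITM genes, whose products hinder the entry of viruses, Ifitm2 was the member that was higher (11.58 to 13.25 in WT, median 12.76, against 14.10, 13.70 and 14.57, difference 1.52 ± 0.25). Ifitm3 and Ifitm1 were at -0.33 and 0.29 and did not pass the test. Xaf1 (-0.26) did not pass either.

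Of the 4 tested genes of the ubiquitin-like protein ISG15 and of its attachment or removal, 4 were lower. Usp18, the deconjugating enzyme and inhibitor of IFNAR signalling, was lower by most (13.39 to 15.28 in WT, median 14.29, against 10.26, 10.37 and 10.63, difference -3.84 ± 0.40). Isg15, counted among the 4, differed by -2.95. GTPases of the GBP and IRG families, which attack the vacuoles of intracellular microbes, were lower in 9 of 12 (median -1.93), with Ifi47 at -2.58, Irgm2 at -2.26 and Gbp2 at -1.87. Gbp2 remained well above its unstimulated level in both genotypes (4.40 in WT and 2.53 in IFNAR-/- DCs). The poly-ADP-ribose polymerases Parp12 (-2.66) and Parp14 (-2.48) and the Ifi200 family genes Ifi214 (-3.09) and Ifi204 (-1.66) were lower as well. Not all members of these families were. Of 8 tested genes of the PARP list 4 were lower and 0 higher (median -0.95), and by adjusted p alone 5 were lower and 2 higher. Of 5 tested genes of the Ifi200 list 2 were lower and 0 higher (median -0.11, highest 0.40).

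Promoter sequence is shown for genes of this group because the factor complex downstream of IFNAR binds a known element, the IFN-stimulated response element, built from repeats of GAAA. Promoters were taken from RefSeq (GRCm38.p6, 250 bases before to 50 after the gene start), which held 7865 of the 9606 genes, and searched on both strands for the pattern GAAA, any 2 bases, GAAA. The motif was found in 4.17% of all these genes, in 41 of 376 lower genes (10.9%), in 21 of 77 genes at least 4-fold lower (27.3%), in 9 of 16 lower antiviral genes (56.2%) and in 18 of 373 higher genes (4.83%). The palindrome TTCNNNGAA, a STAT dimer motif that does not contain it, was in 8.62% of all genes, 10.6% of the lower genes, 10 of 77 genes at least 4-fold lower (13%), 6 of 16 lower antiviral genes (37.5%) and 9.92% of the higher genes. In the stretches below, each given 5′ to 3′ on the strand of its gene and ending before the start site, capitals mark the motif with its overlapping copies, or its reverse complement where the letters read TTTC. Isg15 (chr4:156200855-156200904, minus strand) holds overlapping copies, Ifit3 lies at chr19:34583387-34583436 (plus strand), Oas1g at chr5:120887614-120887645 (minus strand), Rsad2 at chr12:26456543-26456592 (minus strand), Cxcl10 at chr5:92349073-92349122 (minus strand) and Stat2 at chr10:128270256-128270305 (plus strand). Saa3 (chr7:46715772-46715821, minus strand) is shown as a gene that holds the motif and was higher without IFNAR. The promoters of Irf7, Sct, C1qb and Lyz2 held no match.
Isg15: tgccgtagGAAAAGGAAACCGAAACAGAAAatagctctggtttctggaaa
Ifit3: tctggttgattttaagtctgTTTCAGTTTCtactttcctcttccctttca
Oas1g: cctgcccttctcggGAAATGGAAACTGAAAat
Rsad2: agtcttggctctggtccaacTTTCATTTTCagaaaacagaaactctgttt
Cxcl10: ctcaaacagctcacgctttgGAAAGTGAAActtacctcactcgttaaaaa
Stat2: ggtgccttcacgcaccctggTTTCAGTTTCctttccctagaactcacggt
Saa3: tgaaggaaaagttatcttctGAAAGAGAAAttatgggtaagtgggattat

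**Figure D2:**
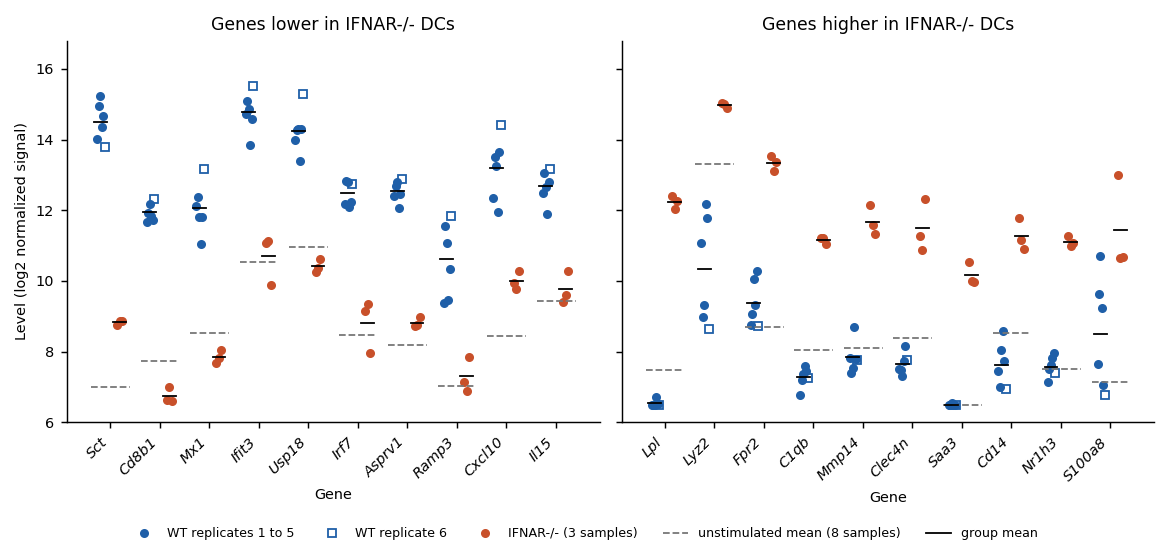
Levels (log2 normalized signal, y axis) of 10 genes lower and 10 genes higher in IFNAR-/- DCs, with 1 point per sample, solid lines at the group means and dashed lines at the mean of 8 unstimulated samples. WT replicate 6 (open squares) was the highest WT sample for Mx1, Ifit3 and Usp18 and the lowest for Lyz2, and the groups overlap only for S100a8.

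Components of the IFN pathway were themselves lower. Of 17 tested IRF, STAT and SOCS genes, 7 were lower and 0 higher (median -0.72). Irf7, the factor that amplifies IFN production, was at 12.09 to 12.84 in WT DCs (median 12.49) and at 9.16, 9.34 and 7.96 in IFNAR-/- DCs. No sample of one group reached the other (difference -3.66 ± 0.41, adjusted p = 6.08e-08). Stat2 (-2.59 ± 0.24) and Irf9 (-1.89 ± 0.22), partners in the complex downstream of IFNAR, were lower, and so was the kinase gene Tyk2 (-1.34 ± 0.18). Stat4, which carries IL-12 and IFN signals, differed by -2.77, Socs2, a feedback inhibitor, by -1.92, Irf1 by -1.41 and Stat3 by -1.17. The IFN-γ receptor gene Ifngr1 was at 0.66 and did not pass the test (adjusted p = 0.076).

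Among 14 genes of RNA and DNA sensing 4 were lower and 1 was higher. Ddx58 (RIG-I, -2.97 ± 0.33), its regulator Dhx58 (-2.88), the single-stranded RNA receptor Tlr7 (-1.70 ± 0.19) and Ifih1 (MDA5, -1.24 ± 0.41, adjusted p = 0.0177) were lower, while Ikbke, a kinase upstream of IRF3, was higher (6.68 to 7.26 in WT, against 8.98, 8.32 and 8.85, difference 1.79 ± 0.25). Tlr3 lay near background in both groups (6.49 to 7.08 in WT, against 6.49, 6.72 and 6.49). Of 10 type I IFN genes 1 was lower. Ifnb1 was at 8.28 to 9.70 in WT DCs (median 9.38) and at 6.91, 6.61 and 8.40 in IFNAR-/- DCs. The groups overlapped through IFNAR-/- replicate 3 (difference -1.81 ± 0.35, adjusted p = 0.000153).

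Genes of MHC class I presentation were lower and those of class II were not. Of 13 genes of class I peptide loading 8 were lower and 0 higher (median -1.25), and 6 were lower and 1, the chaperone gene Pdia3 (1.15), higher without WT replicate 6. Nlrc5, the transactivator of class I genes, was at 11.50 to 12.47 in WT DCs (median 12.23) against 10.05, 10.02 and 10.50. Every IFNAR-/- sample was below every WT sample (difference -1.95 ± 0.20, adjusted p = 1.64e-08). The class I heavy chain genes H2-K1 (-1.83 ± 0.22) and H2-D1 (-1.68 ± 0.54) and the peptide transporter gene Tap1 (-1.38 ± 0.15) were lower. Tapbp, the bridge between transporter and class I chain, passed with all samples (-1.09) and not without WT replicate 6 (-0.81). So did Tap2 (-1.25 and -0.99), for which the level of replicate 6, 13.74, stood above the 11.89 to 12.43 of the other WT samples. Class I genes such as H2-D1 are highly alike in sequence, and their probes may take up signal from each other.

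The light chain gene B2m (-0.37) and the immunoproteasome genes Psmb8 (-0.78, adjusted p = 0.0105) and Psmb9 (-0.65, adjusted p = 0.00711) did not reach 2-fold, and of 6 immunoproteasome genes 0 were called (2-fold limit, limma), while 4 were lower and 1 higher by adjusted p alone. Of 12 class II genes 2 were higher and 0 lower (median 0.75), where 4.71% of all genes were higher. By adjusted p alone 7 were higher and 0 lower, where 17.9% of all genes were higher. The 2 called were H2-DMa (11.56 to 13.34 in WT, against 13.61, 13.86 and 13.82, difference 1.27 ± 0.30) and H2-DMb1 (1.07 ± 0.25), which encode the peptide exchange factor H2-DM. The class II chain gene H2-Ab1 (0.14) and the transactivator gene Ciita (0.87, adjusted p = 0.00734) did not pass. In WT DCs, 7 of the 12 class II genes were below unstimulated DCs and in IFNAR-/- DCs 1.

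**Figure D3:**
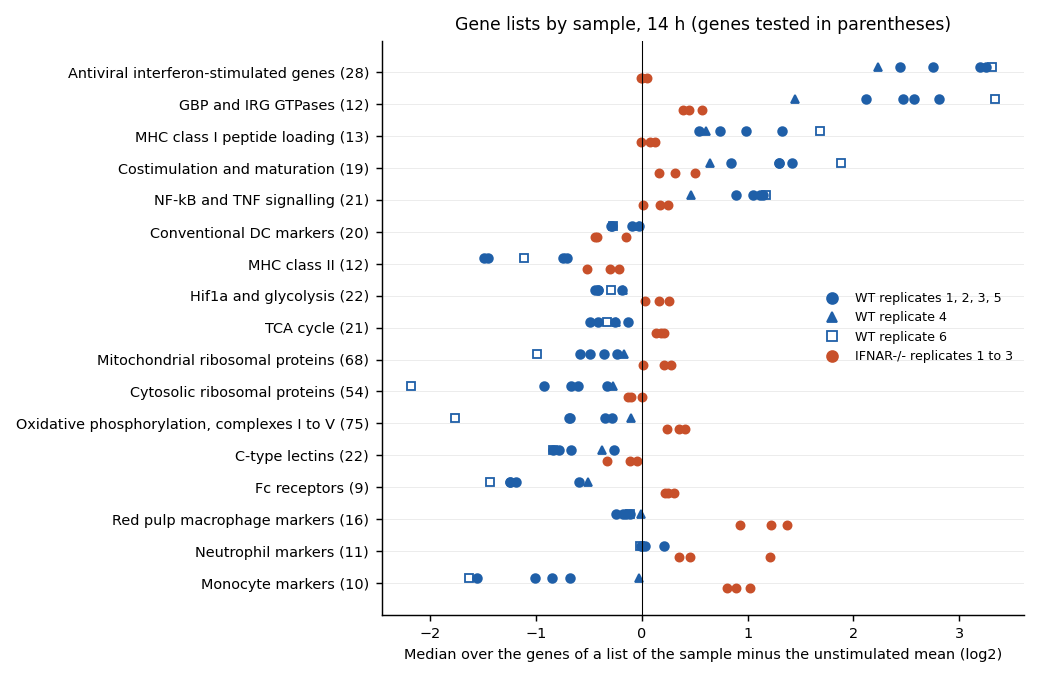
Median over the genes of a list of the sample minus the unstimulated mean (log2, x axis) for 17 lists (y axis, genes tested in parentheses), with 1 point per sample at 14 h. The antiviral list lay between 2.23 and 3.31 in WT and between -0.01 and 0.05 in IFNAR-/- DCs, and WT replicate 6 lay lowest for the oxidative phosphorylation and cytosolic ribosomal lists.

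Costimulation and maturation genes were lower in 12 of 19 and higher in 1 (median -1.09, and 10 lower and 1 higher without WT replicate 6). Cd40, through which T cells signal to DCs, was at 12.90 to 14.28 in WT DCs (median 13.54) and at 11.52, 11.51 and 11.94 in IFNAR-/- DCs. The groups did not overlap (difference -1.90 ± 0.18, adjusted p = 3.32e-09). Fscn1 (fascin, which bundles actin in the dendrites of mature DCs) was at 12.63 to 13.72 (median 13.24) against 10.49, 10.32 and 11.79, with IFNAR-/- replicate 3 the highest of its group (difference -2.32 ± 0.38). Il15, whose product sustains CD8 T cells and NK cells, ran from 11.89 to 13.17 (median 12.73) against 9.41, 9.60 and 10.28. It was separated in all samples (difference -2.92 ± 0.22, adjusted p = 3.16e-11), as was Il15ra, which presents IL-15 (-2.75 ± 0.30).

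Cd80, a ligand of CD28, differed by -1.32 ± 0.33 with overlapping groups (9.47 to 12.02 in WT, against 9.17, 8.98 and 9.69), and its partner Cd86 did not pass the test (-0.38, adjusted p = 0.35). The TNF family ligand gene Cd70 was lower with overlap (-1.47), the inhibitory ligand gene Cd200 was lower without it (-2.24), and the lymph node homing receptor gene Ccr7 differed by -1.09 ± 0.36 (adjusted p = 0.0194). Icam1, which encodes an adhesion molecule, passed with all samples (-1.09) and not without WT replicate 6 (-0.95). Cd83 (-0.74) and Cd274 (PD-L1, a ligand that restrains T cells, -0.74) did not reach 2-fold. Cd44, a receptor for hyaluronan, was the member that was higher (1.62 ± 0.28), though only 0.44 where all kept probes of a gene were averaged.

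NF-kB and TNF signalling genes were lower in 8 of 21 and higher in 0 (median -0.82). Birc2, an inhibitor of apoptosis that restrains the noncanonical pathway, was at 12.70 to 14.24 in WT DCs against 11.36, 11.71 and 12.55, without overlap (-1.72 ± 0.24). Relb (-1.48 ± 0.26) and Nfkb2 (-1.09), subunits of that pathway, and the adaptor genes Traf1 (-1.50 ± 0.19) and Traf6 (-1.47) were lower. Cytokine genes moved both ways: of 16, Il15, Il27 (-1.15) and Ebi3 (-1.07), the last 2 encoding the subunits of IL-27, were lower, and Il1a was higher (6.49 to 6.58 in WT, detected on 3 of 6 arrays, against 8.90, 8.32 and 8.81, difference 2.16 ± 0.18). Il27 overlapped between groups and did not pass without WT replicate 6 (-0.94). Il6 (-0.54) and Il18 (0.30) did not pass.

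Chemokine genes were lower in 2 of 14 and higher in 6. Cxcl10, a ligand of CXCR3 that draws in T cells, was at 11.95 to 14.41 in WT DCs (median 13.38) against 9.95, 9.76 and 10.28, a clear separation (difference -3.19 ± 0.44, 9.13-fold). Cxcl9, another ligand of CXCR3, did not differ by 2-fold (-0.15 ± 0.23, adjusted p = 0.736). Ccl5 was lower with overlap (-1.10 ± 0.38, adjusted p = 0.0236). The higher genes encode chemokines for neutrophils and monocytes: Cxcl2 (6.49 to 7.05 in WT, detected on 4 of 6 arrays, against 9.77, 8.54 and 9.19, difference 2.53 ± 0.41), Ccl9 (2.12), Ccl12 (1.59), Ccl6 (1.36), Ccl7 (1.14) and Ccl2 (1.08).

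Of the 8797 tested genes outside the lists, 363 were lower and 323 higher, where 4.92% and 4.71% of all genes were. The largest fall of any gene was in Sct, which encodes the gut hormone secretin. It was at 13.80 to 15.24 in WT DCs (median 14.51), where it was among the brighter genes, and at 8.75, 8.86 and 8.86 in IFNAR-/- DCs. The IFNAR-/- samples were nearly equal and far below every WT sample (difference -5.68 ± 0.28, 51.3-fold, adjusted p = 2.63e-15), yet 1.82 above unstimulated DCs.

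Cd8b1, which encodes the β chain of CD8, was at 11.66 to 12.31 in WT DCs (median 11.89) and at 6.63, 6.99 and 6.61, near background, in IFNAR-/- DCs. The spread within each group was small against the gap (difference -5.20 ± 0.30, 36.7-fold, adjusted p = 1.33e-13). The T cell receptor complex genes Cd3d, Cd3e and Cd3g lay at 6.49 to 6.78 in the WT samples and differed by -0.04, -0.02 and 0.00, and of 10 T cell markers Cd8b1 was the member called.

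Other large falls were in Asprv1, a skin aspartic protease gene (12.07 to 12.89 in WT, median 12.57, against 8.71, 8.74 and 8.97, difference -3.75 ± 0.28), Fgfbp3, which binds fibroblast growth factors (-3.70 ± 0.32), the lipocalin gene Apod (-3.34 ± 0.28, detected on 1 of 3 IFNAR-/- arrays), Agrn, which encodes agrin (-3.18 ± 0.31), and Ramp3, a partner of calcitonin-family receptors (9.37 to 11.85 in WT, median 10.71, against 7.14, 6.89 and 7.86, difference -3.32 ± 0.44). In each of these the groups were apart. Helz2, a nuclear helicase gene (-3.28), and Pml, of the nuclear bodies (-3.27), were lower. Tnfrsf4 (OX40), a costimulatory receptor better known from T cells, was at 12.62 to 13.57 against 10.08, 9.76 and 10.92 (-2.89 ± 0.29), the complement gene C2 differed by -2.86, and the cathepsin E gene Ctse by -2.59.

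The largest difference among the higher genes, and of any gene, was in Lpl. It encodes lipoprotein lipase, which frees fatty acids from circulating lipoproteins, and was at 6.49 to 6.70 in WT DCs, detected on 2 of 6 arrays, and at 12.40, 12.04 and 12.27 in IFNAR-/- DCs. All 3 IFNAR-/- samples were high and no WT sample left background by much (difference 5.70 ± 0.35, 52.1-fold, adjusted p = 3.14e-13). Nr1h3, the nuclear receptor LXRα that senses oxysterols, was at 7.14 to 7.96 (median 7.56) against 11.28, 10.98 and 11.08, with tight groups (3.54 ± 0.28). In the list of cholesterol synthesis and efflux, of which Lpl is a member, the other 18 tested genes were not called, Ch25h (-0.16) included (median of the list -0.03).

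Lyz2, the lysozyme gene of myeloid cells, varied among WT samples from 8.63 to 12.18 (median 10.20) and was at 15.03, 15.02 and 14.89 in IFNAR-/- DCs. The groups were apart although the WT samples spread widely (difference 4.65 ± 0.54, adjusted p = 1.32e-07). Lyz1 followed (3.13 ± 0.49), and since the genes are near-identical copies their probes may take up each other's signal. Fpr2, a receptor for formyl peptides, was at 8.72 to 10.28 (median 9.19) against 13.53, 13.11 and 13.38, without overlap (3.97 ± 0.39). Cd14, a co-receptor for lipopolysaccharide, ran from 6.94 to 8.57 (median 7.59) against 11.77, 11.15 and 10.90 (3.65 ± 0.44).

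The 3 chains of the complement component C1q were higher together: C1qb at 6.77 to 7.60 in WT DCs against 11.22, 11.21 and 11.03 (3.88 ± 0.42), C1qc by 3.04 ± 0.33 and C1qa by 1.65 ± 0.17, the last detected on 3 of 6 WT arrays. The matrix metalloproteinase gene Mmp14 was at 7.40 to 8.70 in WT DCs against 12.14, 11.58 and 11.33 (3.85 ± 0.32). Saa3, an acute phase gene, was at 6.49 to 6.54, detected on 1 of 6 WT arrays, against 10.53, 10.01 and 9.98 (3.67 ± 0.19). These genes were low in every WT sample and high in every IFNAR-/- sample. Capg, which caps actin filaments, had the smallest adjusted p of the genes named (6.78 to 7.28 against 10.16, 9.80 and 9.90, difference 2.99 ± 0.11, adjusted p = 6.18e-18). Gpr84, a receptor for medium-chain fatty acids, was undetected on the 6 WT arrays and at least 5.60-fold higher.

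Some C-type lectins and Fc receptors, by which phagocytes recognise microbes and antibody-coated particles, were higher. Of 22 C-type lectins 7 were higher and 1 lower (median 0.14), and of 9 Fc receptors 4 were higher and 0 lower (median 0.58). Over all genes 4.71% were higher and 4.92% lower. Clec4n (Dectin-2), a receptor for fungal mannans, was at 7.32 to 8.15 in WT DCs (median 7.62) against 11.27, 10.88 and 12.31, wholly apart (3.83 ± 0.25, adjusted p = 2.1e-12). Clec4d (2.90 ± 0.27) and Clec4e (Mincle, 2.15 ± 0.40), which lie in the same cluster, were higher. Ly75 (DEC-205), an antigen uptake receptor, was lower with overlap (-1.48 ± 0.35). Fcgr3 (2.74 ± 0.33), Fcgr2b (2.67 ± 0.37) and Fcgr4 (2.13 ± 0.46) were higher. Fcgr2b and Fcgr3 share much of their sequence, so their signals may not be separate.

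Some markers of other myeloid cells were higher as well, where 4.71% of all genes were. Of 10 monocyte markers 7 were higher and 0 lower (median 1.90), and their summed signal was 4042 to 32105 units in WT and 96862 to 102570 in IFNAR-/- samples, most of it lysozyme, while Ace lay at background in both. Of 11 neutrophil markers 5 were higher and 0 lower (median 0.78, summed signal 1168 to 3651 against 4715 to 15476). They were led by Hp (3.06) and S100a8, whose groups overlapped (6.77 to 10.71 against 13.00, 10.64 and 10.69, difference 2.94 ± 0.65). The neutrophil granule genes Elane, Camp and Ngp differed by -0.01, 0.00 and 0.11. Of 16 red pulp macrophage markers 7 were higher and 0 lower (median 0.52, with 5 genes below 0, summed signal 10442 to 15480 against 19312 to 25992). Among the higher were Hmox1, which breaks down heme (6.76 to 7.76 against 10.25, 10.10 and 10.13, difference 2.85 ± 0.30), the iron exporter gene Slc40a1 (2.43 ± 0.55), the metal transporter gene Slc11a1 (2.33 ± 0.29) and the apoptotic cell receptor gene Mertk (1.45 ± 0.20). Spic, the factor that defines these macrophages, was at -0.50 ± 0.27 (11.06 to 12.39 against 11.34, 11.49 and 10.82), Vcam1 at -0.25 and Cd163 at 0.00. In bulk RNA, fewer or more cells of a type cannot be told apart from less or more RNA per cell, and the part of such cells in these differences was not tested.

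Of 20 conventional DC markers 2 were lower and 1 higher (median -0.10, where 4.92% and 4.71% of all genes were called). Their summed signal, in which bright genes weigh most, was 22697 to 29910 units in WT and 16286 to 20888 in IFNAR-/- samples. By this sum every IFNAR-/- sample lay below every WT sample. The medians of the list over unstimulated DCs overlapped (-0.29 to -0.03 in WT and -0.45 to -0.15 in IFNAR-/- samples). Zbtb46, a factor of conventional DCs, was at 9.70 to 10.50 in WT and at 9.21, 9.06 and 9.02 in IFNAR-/- DCs (-0.93 ± 0.16, under 2-fold), and Itgax, which encodes CD11c, was at 7.55 to 9.11 against 9.19, 9.51 and 8.91 (0.76 ± 0.54, adjusted p = 0.324). Esam, found on CD4-type DCs, was lower (-1.33 ± 0.20) and Itgae (CD103) higher (1.60 ± 0.50). The subset genes Xcr1 (-0.05) and Clec9a (-0.08) of cross-presenting DCs did not differ by 2-fold, while Cd8b1 was near background in IFNAR-/- DCs. Of the markers of B cells (7) and erythroid cells (6) 0 were called by limma at 2-fold, and of 7 NK cell markers 1 was, the receptor gene Klrk1 (-1.37 ± 0.16). Of 8 plasmacytoid DC markers 2 were lower, Bst2 (-2.20), itself an IFN-stimulated gene, and Spib (-1.52). The summed signal of the list did not overlap (3178 to 5737 in WT against 2183 to 2335), while its medians over unstimulated DCs did (-0.14 to 0.25 against -0.25 to 0.004). The part of such cells in the differences was not tested.

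Genes of oxidative phosphorylation were higher without IFNAR, by less than 2-fold in most. Of 75 tested 35 were higher and 0 lower (median 0.99, against 0 over all genes), and 54 were higher by adjusted p alone, where 17.9% of all genes were. Without WT replicate 6, 12 were higher (median 0.74) and 51 by adjusted p alone. For 51 of the 75 genes all IFNAR-/- samples lay above all WT samples, with and without WT replicate 6, against 15.1% and 15.8% of all genes. Over unstimulated DCs the median of the list was -1.76 in WT replicate 6, -0.68 to -0.11 in the other WT samples and 0.24, 0.35 and 0.41 in the IFNAR-/- samples. The count at 2-fold thus moved with WT replicate 6, and the direction was shared by the other samples.

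By complex, 17 of 33 genes of complex I, which takes electrons from NADH, were higher (7 without WT replicate 6), 1 of 3 of complex II, 3 of 8 of complex III (1), 7 of 16 of complex IV, which reduces oxygen (1), and 7 of 15 of the ATP synthase (2). Atp5g1, which encodes subunit c of the rotor, was at 8.39 to 10.80 in WT DCs (median 10.02) against 11.74, 11.54 and 11.96. The groups were apart (1.79 ± 0.30, and 1.48 without WT replicate 6). Ndufc1, an accessory subunit of complex I, was at 7.56 to 10.83 (median 10.31) against 11.65, 11.56 and 11.44, with WT replicate 6 far below the other WT samples (9.89 to 10.83, difference 1.67 ± 0.37, and 1.21 without it). Sdhc, a membrane anchor of complex II, was less spread in WT DCs (8.48 to 9.26, against 10.16, 10.04 and 10.07, difference 1.18 ± 0.20, and 1.10 without replicate 6). Cox6a1 of complex IV passed with all samples (1.17) and not without replicate 6 (0.76).

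**Figure D4:**
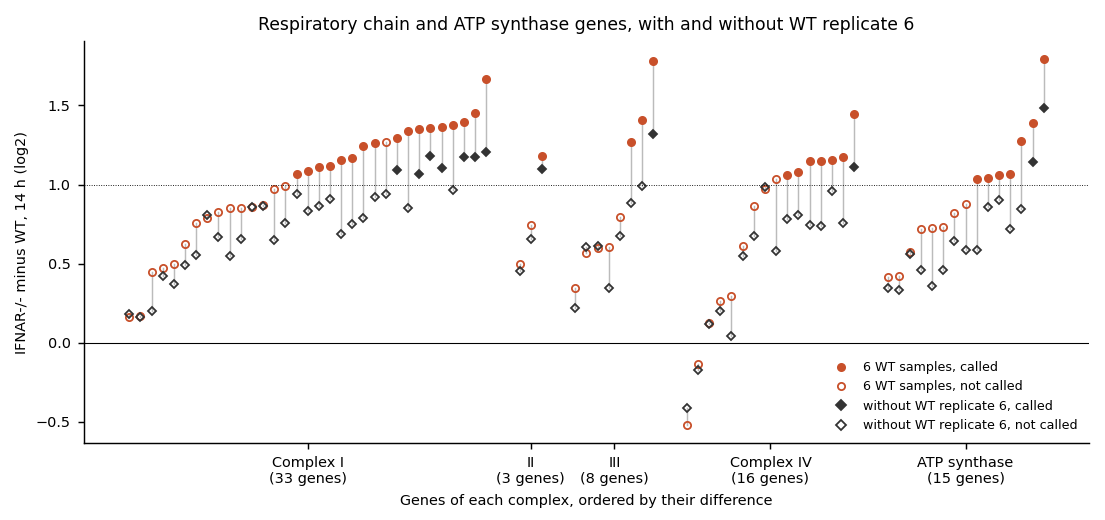
Difference between IFNAR-/- and WT DCs at 14 h (log2, y axis) for 75 genes of the respiratory chain and ATP synthase, ordered within each complex (x axis), with all 6 WT samples (circles) and without WT replicate 6 (diamonds), filled where called. Most genes lie above 0 in both settings, 35 were called with all samples and 12 without replicate 6.

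Most glycolytic genes were not called with the 2-fold limit, and those that were called were higher. Of 22 genes of the list of Hif1a and glycolysis 4 were higher and 0 lower (median 0.35), with the same count without WT replicate 6. Over all genes 4.71% were higher. By adjusted p alone 9 of the 22 were higher and 3 lower, where 17.9% and 15.3% of all genes were. The IFNAR-/- samples lay above all WT samples for 8 of the 22 and below them for 1, against 15.1% and 12.2% of all genes. Ldha, lactate dehydrogenase A, was at 10.41 to 11.43 in WT DCs (median 10.93) against 12.54, 12.22 and 12.34, without overlap (1.44 ± 0.20, adjusted p = 1.93e-06). Tpi1 (1.76 ± 0.19), Pkm, the pyruvate kinase gene (1.23 ± 0.11), and Hk3 (1.14 ± 0.25) were the other 3. Hif1a, the oxygen-regulated factor that induces glycolytic genes, was at 8.12 to 9.14 in WT DCs (median 8.68) against 7.84, 7.83 and 8.15. It was below most WT samples with a slight overlap and did not reach 2-fold (-0.66 ± 0.20, adjusted p = 0.0118). The glucose transporter gene Slc2a1 was higher without overlap but did not reach 2-fold (0.92 ± 0.20, limma adjusted p = 0.000474). Hk2 did not pass by either limit (0.41 ± 0.21, limma adjusted p = 0.144).

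In the TCA cycle 4 of 21 genes were higher, Fh1 (1.30 ± 0.18), Idh3a (1.23 ± 0.16), Sdhc and Idh2, the last not called without WT replicate 6 (1.19 and 1.03), and Idh1, the cytosolic enzyme, was lower with overlap (-1.11 ± 0.35) and not without WT replicate 6 (-0.90). Fatty acid oxidation was divided, with the acyl-CoA dehydrogenase genes Acadl (-1.52 ± 0.35) and Acadm (-1.13 ± 0.23, and -0.93 without replicate 6) lower and Etfb, an electron carrier of the same pathway (1.69 ± 0.30), and 3 more genes higher among 17. Of 23 redox genes 4 were higher, Sod2, the mitochondrial superoxide dismutase, most after Hmox1 (8.70 to 9.99 in WT against 11.88, 11.25 and 12.56, difference 2.57 ± 0.33), then Gstp1 (2.09 ± 0.24). Of 22 genes of purine and pyrimidine synthesis 6 were higher, with the salvage enzyme gene Aprt at 7.22 to 9.73 in WT DCs against 11.35, 10.99 and 10.97 (2.45 ± 0.29).

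Fewer ribosomal protein genes were called. Of 54 tested cytosolic genes 11 were higher and 0 lower (median 0.78). Without WT replicate 6, 3 were higher (median 0.51), a share near the 3.57% of all genes. Rps15 and Rps26 passed with all samples (1.38 each) and not without replicate 6 (0.98 and 0.93), whose level of Rps26 was 10.82 against 12.98 to 14.13 in the other WT samples. For 25 of the 54 genes the IFNAR-/- samples lay above all WT samples, with and without that sample, as they did for 15.1% and 15.8% of all genes. Of 68 mitochondrial ribosomal genes 11 were higher (7 without replicate 6, median 0.59), Mrpl23 (2.00 ± 0.33) and Mrpl52 (1.89 ± 0.57) most. That these lists moved with 1 sample's distance from the rest is given as measured, and its part in the differences was not tested.

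Set against unstimulated DCs, the lower genes were mostly genes that had risen in WT DCs. Of the 473, 402 were above unstimulated DCs in WT DCs, and in 369 of these IFNAR-/- DCs were not called, in 30 IFNAR-/- DCs were above as well, and 68 genes were called in neither. The 452 higher genes were of several kinds: 202 were below unstimulated DCs in WT DCs, 88 were above them in IFNAR-/- DCs, and 169 were called in neither. Lyz2 was -2.99 in WT and 1.66 in IFNAR-/- DCs, Fcgr2b -1.91 and 0.75, Ldha -1.07 and 0.37, while Lpl was -0.96 and 4.75, Saa3 0.01 and 3.68 and Nr1h3 0.06 and 3.60. Over all genes, WT DCs had 596 genes (6.2%) above and 458 (4.77%) below unstimulated DCs and IFNAR-/- DCs 161 (1.68%) and 77 (0.802%). Both comparisons share the unstimulated samples and the group sizes differ, 6 against 3.

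The lower genes were in part lower at 4 h and the higher genes mostly were not. At 4 h (4 IFNAR-/- and 8 WT samples) 365 genes (3.8%) were lower and 79 (0.822%) higher. Of the 473 genes lower at 14 h 189 (40%, and 51.8% of those lower at 4 h) were lower at 4 h, and of the 452 higher genes 27 (5.97%, and 34.2% of those higher at 4 h) were higher at 4 h and 7 were lower. The change between the times was tested as the difference of differences, which was called negative for 304 genes (3.16%) and positive for 370 (3.85%). It was negative for 177 of the lower genes and positive for 191 of the higher genes. This call gives the direction of the change and not a wider gap, since a gene may cross 0, as Hk3 did (-1.38 at 4 h and 1.14 at 14 h). Among the genes that differed at both times with no call between them were Mx1 (-4.33 at 4 h and -4.21 at 14 h), Sct (-5.34 and -5.68) and Il15 (-3.09 and -2.92). Ramp3 (0.09 and -3.32), Tnfrsf4 (0.01 and -2.89), Stat4 (-0.45 and -2.77), Fscn1 (-0.36 and -2.32) and Birc2 (0.14 and -1.72) were at their full difference at 14 h alone, and Cd8b1 grew from -2.43 to -5.20. Lpl (0.80 and 5.70), Lyz2 (0.39 and 4.65) and C1qb (0.02 and 3.88) were the like among the higher genes. Fcgr4 passed from -1.27 to 2.13, and Ifnb1 from -4.04 to -1.81. The promoter motif of paired GAAA was in 33 of 142 genes lower at both times (23.2%) and in 8 of 234 lower at 14 h and not called at 4 h (3.42%). Time and set of samples cannot be told apart here.

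**Figure D5:**
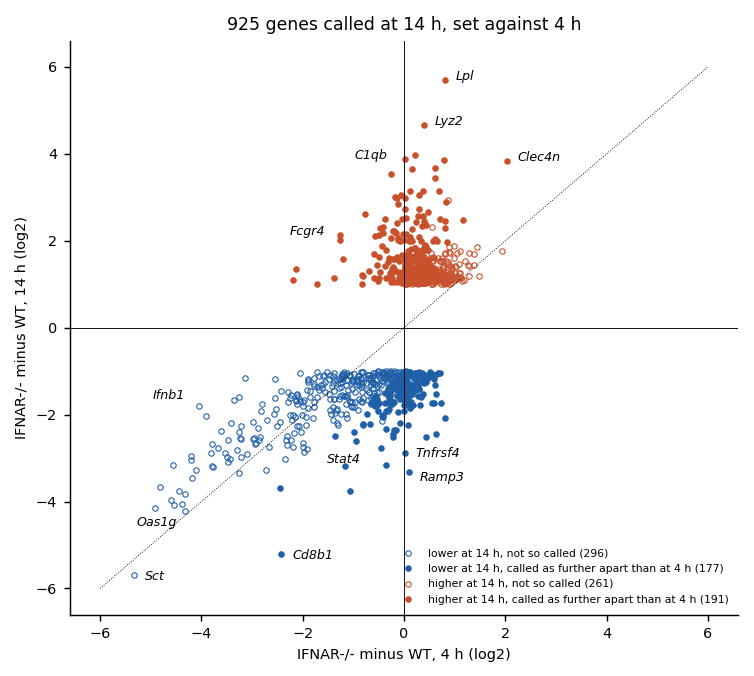
Difference between IFNAR-/- and WT DCs at 14 h (log2, y axis) against that at 4 h (log2, x axis) for the 925 genes called at 14 h, with a dotted line of equality. Filled points, labelled as further apart, mark lower genes with a difference called more negative than at 4 h (177) and higher genes with one called more positive (191). Some of these cross 0 between the times. Antiviral genes such as Oas1g lie near the line, and Lpl, Lyz2 and C1qb lie near 0 at 4 h.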

How the data were processed

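RNA of sorted spleen DCs had been labelled and hybridized to Illumina MouseRef-8 v2.0 bead arrays. The intensity values used are bead signals that the authors exported from BeadStudio (version not given in the sources used here) and deposited before normalization. The detection p-value that the authors deposited with every signal comes from negative control beads. The authors' own log2 table, floored at background, quantile normalized and centred on the median of each probe in GeneSpring, was deposited as well. It served as an alternative only. Its direction and scale followed the signals used here (correlation of 0.972 to 0.99, slope 0.938 to 0.99 over the 9 arrays, column medians -0.0056 to 0.011), and the samples its centring used stay unknown.

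Signals under the lowest signal with a detection p below 0.05 on their array (84.8 to 97.2 units) were set to it, and after log2 transformation all 36 arrays were quantile normalized together. A probe was kept if detected on at least 3 of them (14202), with the brightest kept probe for a gene (9606 genes, 2589 with several). Gene names come from the platform annotation for 23978 of 25697 probes, updated by Entrez identifier for 23962. In 10 of 318 called genes with several kept probes another probe had the opposite sign. In 137 of the 318 every other kept probe also differed by at least 2-fold in the same direction, and in the rest at least 1 did not. Arrays 1 and 2 of 3 other groups, the unstimulated DCs and the IFNAR-/- DCs at 4 h among them, are labelled as separate samples. They resembled each other more than any other pair within a group (median absolute difference 0.0498 to 0.0553, and at least 0.073 in the 99 other pairs). They were therefore averaged, which leaves 33 samples, and whether they are repeat arrays of 1 sample is not known. The number of arrays limits the precision.

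Testing used limma 3.58.1 under R 4.3.3 (1 mean per group over all 33 samples, two-sided, Benjamini-Hochberg over 9606 genes, called at an adjusted p below 0.05 and at least 2-fold). The code was also run on simulated data with known changes. Those data had independent normal noise with 1 spread per gene and no distant sample such as WT replicate 6, so they say nothing on such effects. A fold against a group without detection is a lower bound. The fit, the lists (53) and the genes named (20 with the largest fall and rise, up to 6 called members of a list in a direction, and a fixed set) were chosen with earlier results of these data known, so they are no independent support. Genes with a value in the text outside this rule were chosen after their values were seen. Lists are described by counts and medians, without a test. Alternatives were other background and scaling, filters, limits, probe summaries, samples and tests, each sample left out and the replicate number as a block. Figures were drawn with matplotlib 3.10.9.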

Additional observations from a re-analysis of the deposited data

Results flagged for a closer look

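In 15 of 147 named genes 1 WT sample stood far from the other 5, with its gap to the nearest divided by the range of the group above Dixon's limit for 6 samples. Chance passes this limit in about 1 of 20 groups of normally distributed values. That rate does not hold for genes set to background in most samples, where 1 slight signal passes the limit. Over all genes 1471 (15.3%) passed it, and in 522 of these (35.5%) the sample was replicate 6. Replicate 6 was low for Ndufc1 (ratio 0.712), Ndufa5 (0.636), Uqcr11 (0.683), Cox6a1 (0.707), Rps15 (0.628) and Rps26 (0.653), and for the list medians of respiratory complex IV (0.696), ATP synthase (0.723), all oxidative phosphorylation (0.652) and cytosolic ribosomal proteins (0.659). It was high for Cd86 (0.653) and Tap2 (0.71). Replicate 4 was high for Lpl (0.862) and Mmp14 (0.675), and replicate 5 for C1qa (0.744), with levels near background for Lpl (6.70) and C1qa (6.67). Replicate 3 was high for Saa3 (1), Cd3d (0.905), Cd3e (1) and Cd3g (0.908), all near background, and for the neutrophil list median (0.779), and replicate 1 was low for the NK cell list median (0.67).

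The difference between genotypes differed between 14 h and 4 h (limma, difference of differences, adjusted p below 0.05 and at least 2-fold) for 68 of the named genes. Values below are the difference at 14 h minus that at 4 h, in log2 units. Among genes lower at 14 h it was negative for Cd8b1 (-2.77), Asprv1 (-2.68), Fgfbp3 (-1.24), Ramp3 (-3.41), Agrn (-2.02), Stat4 (-2.32), Tnfrsf4 (-2.90), Fscn1 (-1.96), Cd80 (-1.25), Relb (-1.43), Birc2 (-1.86), Acadm (-1.52), Esam (-1.45) and Ly75 (-1.52), and also for Zbtb46 (-1.08), which was not called. It was positive, a smaller fall at 14 h, for Ifnb1 (2.23) and Il27 (1.98), and positive for Cxcl9 (1.09) and Il18 (1.05), not called at 14 h.

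Among genes higher at 14 h the myeloid and lipid genes had the large values: Lpl (4.90), Lyz2 (4.26), C1qb (3.86), Nr1h3 (3.79), Fpr2 (3.75), Cd14 (3.49), Fcgr4 (3.40), Pilrb1 (3.19), Capg (3.13), C1qc (3.11), Saa3 (3.06), Mmp14 (3.05), Trem3 (3.03), Hmox1 (2.98), F10 (2.96), Slpi (2.82), Lyz1 (2.77), Hp (2.75), Fcgr3 (2.73), Ccl9 (2.61), Cebpb (2.54), Hk3 (2.51), Cxcl2 (2.49), Dok2 (2.46), Sod2 (2.29), Slc40a1 (2.20), Fcgr2b (2.19), Clec4e (2.17), Il1a (2.12), Clec4d (2.07), Mertk (1.98), Slc11a1 (1.98), Itgae (1.90), Clec4n (1.80), C1qa (1.62), Ikbke (1.36) and Cd44 (1.23). Metabolic and ribosomal genes followed with Aprt (2.05), Gstp1 (1.79), Mrpl23 (1.67), Tpi1 (1.50), Uqcr11 (1.42), Ndufc1 (1.42), Etfb (1.39), Ndufa5 (1.35), Atp5g1 (1.33), Pkm (1.12), Sdhc (1.09) and Ldha (1.08). The samples of the 2 times are different sets, so time and set cannot be told apart.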

How the results depend on the processing

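Of the 473 lower and 452 higher genes, 362 and 293 were called with each of the 9 samples left out in turn, and no alternative called a gene in the opposite direction. With 1 sample left out the counts ran from 407 to 552 lower and from 343 to 557 higher, with both lowest values without WT replicate 6 and both highest without WT replicate 4. Under the other settings the higher genes moved more: 729 with a model-based background (normexp, 679 lower), 293 with limma on the 9 samples alone leaving out WT replicate 6, 258 with the methods' t-test, and 1474 lower and 1721 higher with no fold limit. Scaling every array to a common median, without quantile normalization, gave 322 lower and 878 higher genes (26.8% lower, against 51.1%), with the median of all genes at 0.10. With the median scaling the list medians of IFN receptors and Jak kinases and of plasmacytoid DC markers turned from -0.11 to 0.19 and from -0.20 to 0.0091. Higher cytosolic ribosomal genes numbered 3 to 18 with a sample left out (3 without WT replicate 6, 17 without replicate 4 and 18 without replicate 5) and 20 with median scaling, and higher oxidative phosphorylation genes 12 to 41 (12 without WT replicate 6). Against unstimulated DCs the model-based background gave 783 genes lower in WT, and 139 lower and 253 higher in IFNAR-/- DCs, and 463 genes with a lower difference at 14 h than at 4 h. Causes of these shifts were not tested.

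Replicate numbers did not pair the samples (correlations of deviations 0.257, -0.119 and -0.00827 for numbers 1 to 3, and 1 of 3 IFNAR-/- samples closest to its own number). With the replicate number as a block 545 genes were lower and 529 higher, 460 and 423 of them shared. Of 123 named genes called, 109 were called with each sample left out and 89 under every alternative. Signals near background set the limit for dim genes, whose folds may be too small.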

Other observations

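Single genes outside the lists were picked once the values had been seen, and stand for no group, since the other genes with such roles were not counted. Higher in IFNAR-/- DCs were Nop10 (2.00), Gar1 (1.74) and Nhp2 (1.71), parts of the particles that pseudouridylate ribosomal RNA, Fbl (1.53) and Nop58 (1.53), of the methylating particles, Rrp12 (1.69), and the spliceosome genes Snrpd3 (1.85), Snrpg (1.73) and Lsm7 (1.90). So were the nucleoside diphosphate kinase gene Nme1 (2.46), the cytokine gene Mif (2.01) and the spermidine synthase gene Srm (1.77).

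Among receptors, Tnfrsf18 (GITR, -1.73), Tnfrsf11a (RANK, -1.64) and Lag3, a ligand of class II molecules (-1.75), were lower in IFNAR-/- DCs, and the myeloid receptor genes Pilra (2.58), Ms4a6d (2.62), Cd93 (2.42), P2ry13 (2.02) and Lilrb4a (2.03) were higher. Pla2g7, which hydrolyses platelet-activating factor, differed by 2.72.

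IFNAR-/- replicate 3 stood apart from replicates 1 and 2 for some genes, in both directions. It was lower for Ifit3 (9.89, against 11.09 and 11.12), Irf7 (7.96, against 9.16 and 9.34) and Oas2 (7.82, against 9.13 and 9.01), and higher for Ifnb1 (8.40, against 6.91 and 6.61), Il27 (8.64, against 6.99 and 6.74), Fscn1 (11.79, against 10.49 and 10.32) and Cd70 (8.32, against 7.31 and 6.73). S100a8 was instead high in IFNAR-/- replicate 1 (13.00, against 10.64 and 10.69). With 3 samples no rule for a distant sample was applied.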
